A study of Oryza sativa with 36 samples.

Results

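The WRKY transcription factors of rice were followed through 7 probe sets of 6 genes on the Affymetrix Rice Genome Array, out of 57194 probe sets in all. A probe set was taken when the platform annotation tied it to a single gene, as it did for 22436 probe sets, and when a symbol or synonym of that gene was WRKY and a number, with or without the prefix Os. The genes were *WRKY9*, *OsWRKY24*, *OsWRKY51*, *OsWRKY62*, *OsWRKY71* and *OsWRKY76*. *OsWRKY71* had 2 probe sets, Os.12032.1.S1_at (probe set A) and OsAffx.24166.1.S1_at (probe set B), and each other gene had 1. Only *OsWRKY51* carried the name as its symbol in the annotation. The other 5 genes were named through synonyms of their gene ID in the RefSeq table of assembly ASM3414082v1, in which *OsWRKY24* is also listed as *WRKY8*, *OsWRKY62* as *XB10* and *OsWRKY71* as *wrky38*. Other members of this large family were not analysed here.

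Shoots of 2-week-old rice seedlings were measured on 36 arrays in 12 groups of 3 biological replicates, each replicate being the 10 seedlings of a pot. RH ('Rathu Heenati') is an *indica* cultivar that resists the brown planthopper (BPH), a sap-sucking insect, and TN1 ('Taichung Native 1') is a susceptible *indica* cultivar, and the cultivars are not near-isogenic. Seedlings of both grew naturally (C), were pricked 15 times each at the base with a needle (N), or received about 100 third-instar BPH nymphs per pot, 10 per seedling (P), and were collected at 6 or 24 h. A group name joins variety, hour and treatment, so that T24P is infested TN1 at 24 h and R6C is untreated RH at 6 h. In treated plants the hour of the day went with the time since treatment, and the 2 cannot be told apart between 6 and 24 h. In untreated plants, collected at both times, the hour of the day went with age. Whole shoots were extracted, and fewer cells of a type cannot be told apart from less RNA per cell.

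WRKY proteins share a DNA-binding domain, named after its conserved amino acids, that recognises the W-box in the promoters of target genes. In plants the family is known above all for switching defence and stress programmes, as activators or as repressors, and many of its genes respond to wounding, pathogens and insects within hours. In rice, the products of *OsWRKY62*, *OsWRKY71* and *OsWRKY76* belong to the same subgroup (IIa). *OsWRKY62* and *OsWRKY76* are known as negative regulators of defence that repress genes of phytoalexin synthesis, while *OsWRKY24*, *OsWRKY51* and *OsWRKY71* are known as repressors of hormone-induced genes in the aleurone layer of the grain. *OsWRKY62* and *OsWRKY76* stood next to each other in the RefSeq table, with 0 annotated genes between them.

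The values are intensities on a linear scale, normalized by the authors across arrays. Array medians lay between 35.8 and 39.8, and arrays of a group correlated at 0.988 or more. No detection calls were used. A value near or below these medians may therefore be background, and a fold change read against it could be a lower bound. This concerns *OsWRKY24* in 10 of its 12 groups, *OsWRKY62* at 6 h and probe set B. Levels were not compared between probe sets, since probes differ in brightness. The 4 genes measured as green shoot markers, among them those of the Rubisco small subunit and of Rubisco activase, summed to between 43891 and 57344 per array. The 4 root markers *Lsi1*, *Lsi2*, *IRT1* and *NAAT1* summed to between 397 and 4091, with the highest sums in T24P. A probe set is called differential below when limma gave it a p under 0.05 after Benjamini-Hochberg adjustment across the whole array and a change of at least 2-fold. Shares of all probe sets are given for the adjusted p only. Counts at an unadjusted p under 0.05 have no such share and cannot be set against these. Fold changes are log2 differences of group means, with a standard error (SE) from 1 variance per probe set over all groups. An SE therefore does not describe the spread in the groups compared.

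**Figure D1:**
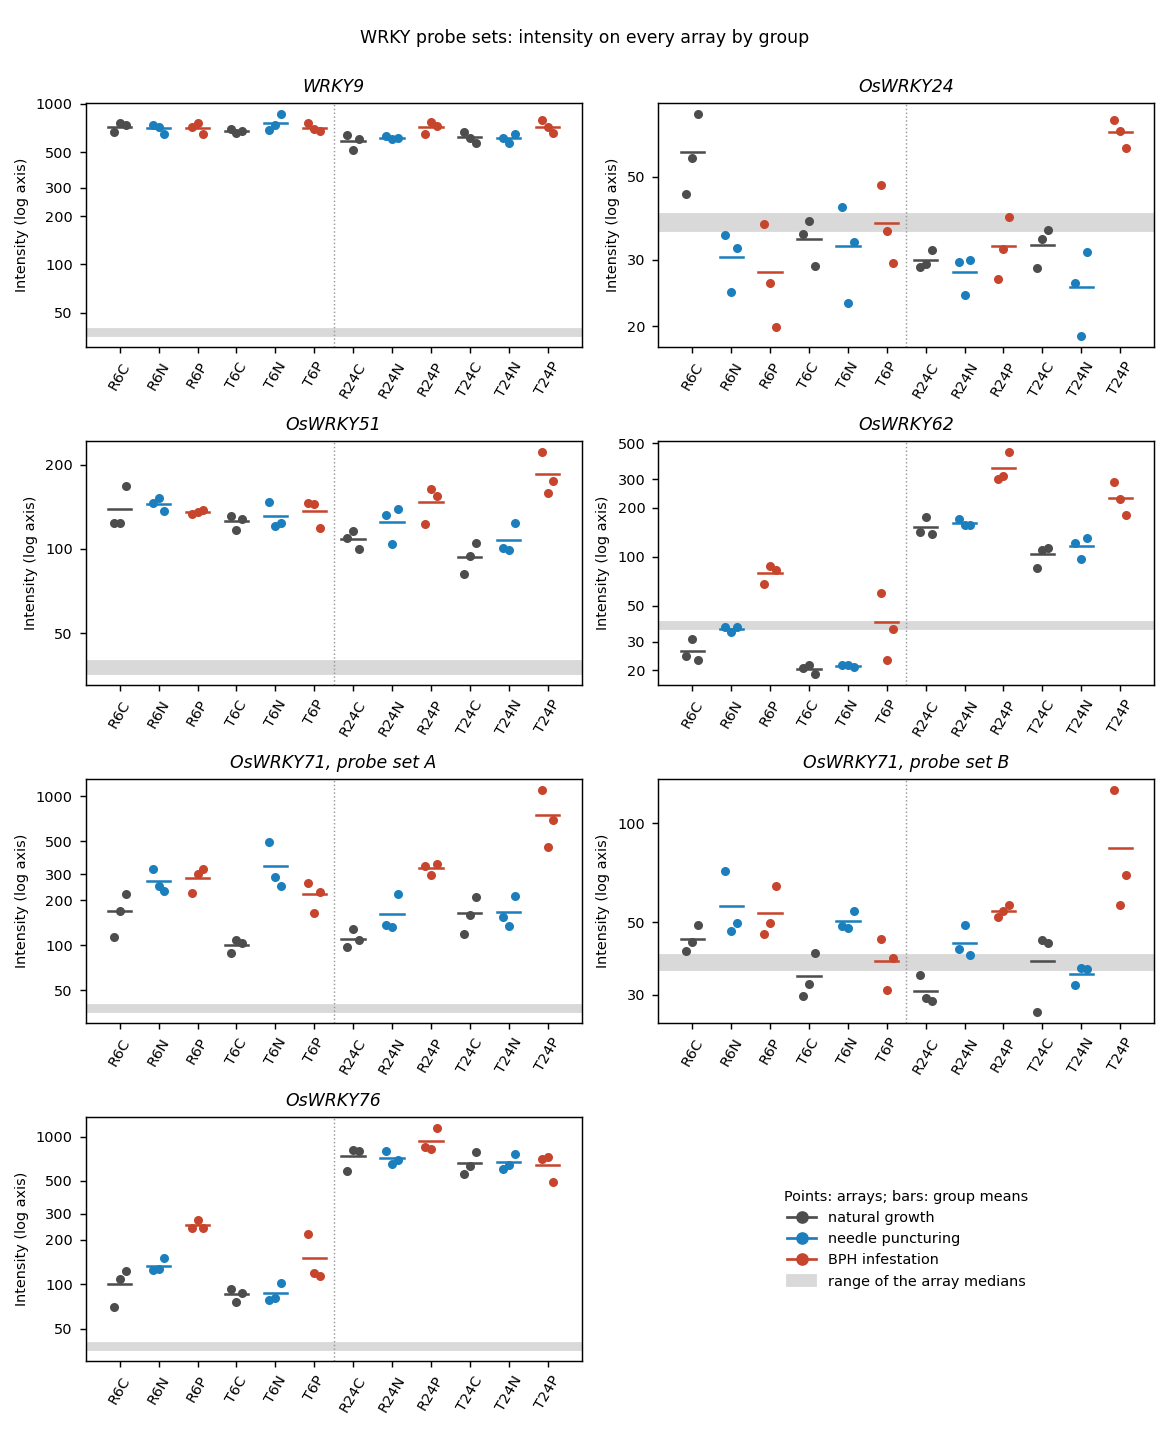
Intensity of each WRKY probe set (log axis, a separate scale in each panel) in the 12 groups, with 1 point per array, a bar for the mean of 3 arrays and a grey band for the range of array medians, 35.8 to 39.8. *OsWRKY76* separates the 6 h groups on the left from the 24 h groups on the right, and *OsWRKY62* does so except where R6P overlaps T24C. Both *OsWRKY71* probe sets peak in T24P, and *WRKY9* stays between 515 and 862.

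The family held genes of very different range. *WRKY9*, for which no role is given here, lay between 515 and 862 on the 36 arrays, a 1.67-fold range, and was differential in no comparison. *OsWRKY51* ranged 2.71-fold, *OsWRKY24* 3.90-fold, *OsWRKY71* 12.3-fold on probe set A and 4.74-fold on probe set B, *OsWRKY76* 16.2-fold and *OsWRKY62* 23.2-fold. The genes with the widest ranges were thus the 3 of the same subgroup. Neighbouring groups in the order of the means were separated, with no shared range of arrays, in 6 of 11 steps for *OsWRKY62* and 4 of 11 for *OsWRKY76*, but in 1 of 11 for *OsWRKY71* on probe set A and in 0 of 11 for the other probe sets. The order came from the same values, and the steps were worked out for the WRKY probe sets only. Whether such counts are unusual on the array was not tested.

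At 6 h after BPH infestation of RH, *OsWRKY62* and *OsWRKY76* rose and *OsWRKY24* fell. These 3 of 7 probe sets were differential in R6P/R6C, against 0.416% of all probe sets. *OsWRKY62*, whose product is also known as a binding partner of the receptor kinase XA21, read 24.4, 31.0 and 23.0 in R6C and 68.4, 87.4 and 83.1 in R6P. The infested arrays lay above all untreated ones, a log2 fold change of 1.61 ± 0.21 (SE, adjusted p = 8.01e-06, limma). *OsWRKY76*, a gene known to dampen resistance to rice blast, read 70.2, 109 and 123 in R6C and 239, 270 and 241 in R6P. Its groups did not overlap either, with a log2 fold change of 1.35 ± 0.21 (SE, adjusted p = 0.000117, limma). Both rises passed the test without any single array of the groups compared, from 1.53 to 1.74 for *OsWRKY62* and from 1.11 to 1.52 for *OsWRKY76*.

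*OsWRKY24* read 44.9, 56.0 and 73.4 in R6C and 37.5, 26.1 and 19.9 in R6P, and in needle-punctured plants, R6N, it read 34.995, 24.6 and 32.2. Every treated array lay below every untreated one. Under BPH infestation its log2 fold change was -1.08 ± 0.22 (SE, adjusted p = 0.00427, limma), and under needle puncturing the log2 fold change was -0.91 (adjusted p = 0.0732). R6P and R6N share the R6C arrays as control, and between them the log2 difference was -0.17, with a 95% interval from -0.63 to 0.28. The untreated group itself stood apart in RH. The 3 R6C arrays and the 3 T24P arrays held the highest group means of the gene, and on the other 30 arrays it lay between 18.8 and 47.4. The call in R6P/R6C was lost without R6C replicate 3 or without R6P replicate 3, with a log2 fold change of -0.86 and an adjusted p of 0.0648 at their weakest.

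In TN1 at 6 h after BPH infestation, *OsWRKY71* was the only differential gene, with 1 of 7 probe sets against 0.329% of all. On probe set A this gene, whose product is known to repress gibberellin-induced alpha-amylase in aleurone cells, read 89.4, 109 and 105 in T6C and 264, 165 and 230 in T6P. The groups did not overlap, and the log2 fold change was 1.10 ± 0.28 (SE, adjusted p = 0.0275, limma). This call was lost in 5 of the 6 fits that left out 1 array, all but the one without T6P replicate 2, with an adjusted p of up to 0.149. Probe set B gave a log2 fold change of 0.15 with a 95% interval from -0.27 to 0.58, so the 2 probe sets did not make the same call.

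*OsWRKY62* and *OsWRKY76* in infested TN1 fell short of 2-fold but not of the adjusted p. *OsWRKY62* read 20.5, 21.6 and 19.0 in T6C and 59.6, 23.2 and 35.997 in T6P, a log2 fold change of 0.85 ± 0.21 (SE, adjusted p = 0.0216, limma). *OsWRKY76* read 92.8, 76.1 and 87.2 in T6C and 219, 120 and 113 in T6P, a log2 fold change of 0.76 ± 0.21 (SE, adjusted p = 0.0450, limma). For both genes all T6P arrays lay above all T6C arrays, and for both T6P replicate 1 was the highest of the 3. The interaction, that is the log2 response in RH minus the one in TN1, was 0.76 for *OsWRKY62* (adjusted p = 0.388) and 0.60 for *OsWRKY76* (adjusted p = 0.483). With 95% intervals from 0.16 to 1.36 and from 0.00 to 1.20, a larger response in RH was not shown after adjustment over all probe sets. *OsWRKY24* had the largest such difference at 6 h, -1.21 (95% interval from -1.85 to -0.57, adjusted p = 0.164), with a log2 fold change of 0.13 in TN1. It passed the threshold in 1 setting, without R6P replicate 1, where it was -1.45 (adjusted p = 0.0486). In all, 0 of 7 probe sets differed in response between the varieties at 6 h by limma's adjusted p, against 0.110% of all probe sets. At an unadjusted p under 0.05, for which no share of all is given, 2 of 7 did.

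**Figure D2:**
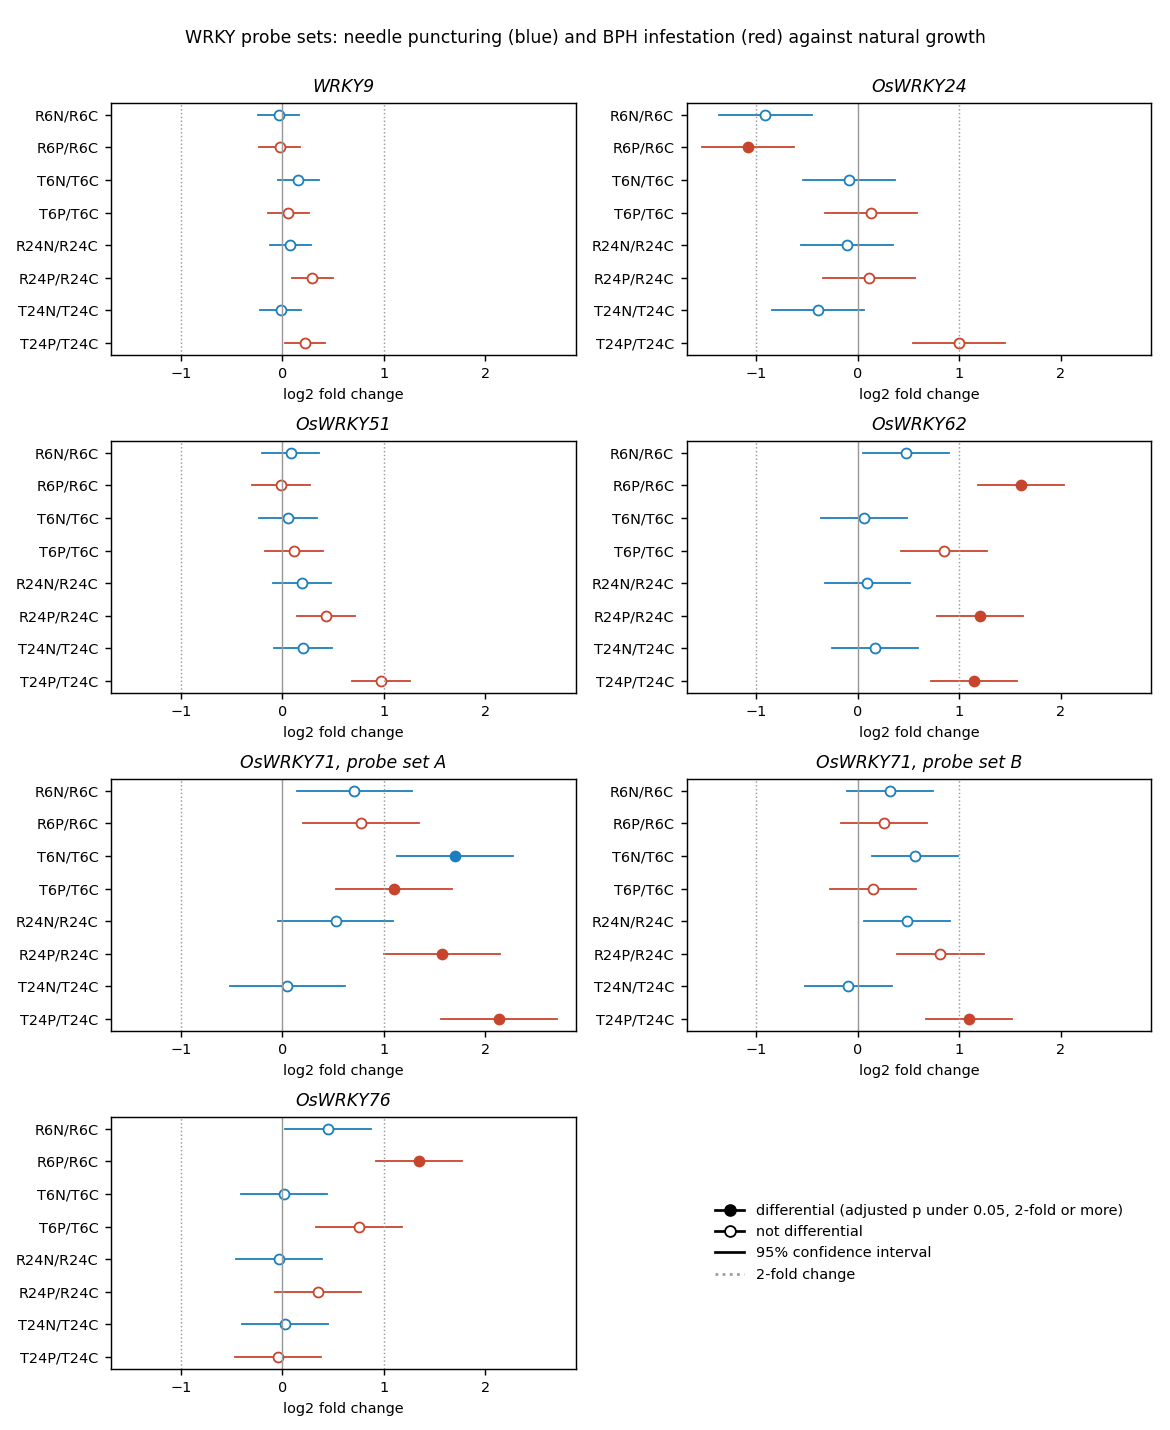
Log2 fold change of each WRKY probe set under needle puncturing (blue) and BPH infestation (red) against natural growth of the same variety and hour, with 95% confidence intervals from 3 arrays per group, filled where differential and dotted lines at 2-fold. *OsWRKY62* has filled points in 3 of the 4 infestation comparisons, *OsWRKY76* only in R6P/R6C, and *OsWRKY71* (probe set A) in 3 infestation comparisons and in T6N/T6C.

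At 24 h after BPH infestation of RH, *OsWRKY71* and *OsWRKY62* rose. They made 2 of 7 probe sets differential in R24P/R24C, against 1.21% of all probe sets. On probe set A, *OsWRKY71* read 97.2, 128 and 108 in R24C and 341, 298 and 349 in R24P, a narrow group well above the controls. The log2 fold change was 1.57 ± 0.28 (SE, adjusted p = 0.000160, limma), and on probe set B it was 0.81 ± 0.21 (SE, adjusted p = 0.00699), under 2-fold, with 34.6, 29.4 and 28.6 in R24C and 51.9, 53.9 and 56.5 in R24P. *OsWRKY62* read 142, 175 and 138 in R24C and 302, 316 and 441 in R24P, a log2 fold change of 1.20 ± 0.21 (SE, adjusted p = 0.000113, limma). Both calls held without any single array of the groups compared. *OsWRKY51* and *WRKY9* passed the adjusted p at small changes of 0.43 (adjusted p = 0.0341) and 0.29 (adjusted p = 0.0399). *OsWRKY76*, differential at 6 h, read 587, 808 and 804 in R24C and 852, 826 and 1139 in R24P. All infested arrays were again the higher ones, but the log2 fold change was 0.36 with a 95% interval from -0.07 to 0.78 (adjusted p = 0.269).

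At 24 h after BPH infestation of TN1, both probe sets of *OsWRKY71* and that of *OsWRKY62* were differential, 3 of 7 against 6.66% of all probe sets, and *OsWRKY24* and *OsWRKY51* passed the adjusted p at just under 2-fold. On probe set A, *OsWRKY71* read 120, 159 and 212 in T24C and 1095, 454 and 692 in T24P. The highest value of any other group was 489, so that T24P held the highest mean of this gene but overlapped T6N. The log2 fold change was 2.14 ± 0.28 (SE, adjusted p = 2.61e-07, limma), the largest of any WRKY probe set against natural growth. Probe set B read 26.6, 44.2 and 43.2 in T24C and 126, 56.2 and 69.8 in T24P, a log2 fold change of 1.10 ± 0.21 (SE, adjusted p = 8.83e-05). *OsWRKY62* read 85.7, 111 and 114 in T24C and 287, 225 and 180 in T24P, a log2 fold change of 1.14 ± 0.21 (SE, adjusted p = 4.61e-05). T24P replicate 1 was the highest array of its group for each of these 3 probe sets. Without it, *OsWRKY62* and probe set B dropped below 2-fold, at 0.97 and 0.76, while probe set A kept its call at 1.81, so that 1 of 7 probe sets was differential.

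*OsWRKY24* passed the adjusted p in TN1 at 24 h, going from 28.6, 34.1 and 36.03 in T24C to 71.0, 66.1 and 59.8 in T24P. The 3 infested arrays lay close together and above all other arrays except R6C replicate 3, which read 73.4. Its log2 fold change of 1.00 ± 0.22 (SE, adjusted p = 0.000589, limma) rounds to 2-fold but was just below it, and with quantile normalization or median centring the gene was called. *OsWRKY51*, known with *OsWRKY71* to repress gibberellin-induced genes in the aleurone, read 81.5, 94.4 and 105 in T24C and 221, 158 and 175 in T24P. Its log2 fold change was 0.97 ± 0.14 (SE, adjusted p = 1.24e-06), and on all arrays outside T24P it lay between 81.5 and 168. Both genes were differential in the fits without T24C replicate 3 or without T24P replicate 3, in which 5 of 7 probe sets were called. *OsWRKY76* read 559, 635 and 785 in T24C and 702, 728 and 494 in T24P. These groups overlapped, and the log2 fold change was -0.05 with a 95% interval from -0.47 to 0.38.

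The median log2 fold change of the 7 probe sets was 1.00 in T24P/T24C, 0.43 in R24P/R24C, 0.26 in R6P/R6C and 0.15 in T6P/T6C, against -0.03, -0.03, 0.02 and -0.02 over all probe sets. The sum of the 4 root markers was 2802 to 4091 in T24P against 1294 to 1436 in T24C, most of it *NAAT1*, which rose by 1.37 (adjusted p = 2.06e-05, limma). Their part in the changes of T24P was not tested. In the interaction at 24 h, 0 of 7 WRKY probe sets passed, against 9.55% of all probe sets. At an unadjusted p under 0.05, for which no share of all is given, 2 of 7 passed. These were *OsWRKY24* at -0.89 (adjusted p = 0.0721, limma) and *OsWRKY51* at -0.54 (adjusted p = 0.0799), with 95% intervals from -1.53 to -0.25 and from -0.95 to -0.14. Both stood near the threshold and passed it in some settings. *OsWRKY24* passed with only the compared groups fitted (adjusted p = 0.0330) and without R24P replicate 3 (adjusted p = 0.0494). *OsWRKY51* passed with quantile normalization, with array weights, with dim probe sets left out, and without T24C replicate 3 or T24P replicate 2, with adjusted p between 0.0213 and 0.0497. *OsWRKY76* was at 0.40 in the opposite direction (95% interval from -0.20 to 1.00, adjusted p = 0.486) and passed with array weights. For *OsWRKY71* on probe set A the difference was -0.56, with a 95% interval from -1.37 to 0.24.

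Needle puncturing, which wounds without feeding, moved 1 WRKY gene. In T6N/T6C, 1 of 7 probe sets was differential, against 0.418% of all probe sets. *OsWRKY71* on probe set A read 489, 286 and 250 in T6N against 89.4, 109 and 105 in T6C, a log2 fold change of 1.70 ± 0.28 (SE, adjusted p = 0.000358, limma) that held without any single array. Probe set B read 48.5, 48.0 and 54.2 against 29.8, 32.4 and 40.2, which do not overlap, with a log2 fold change of 0.57 (adjusted p = 0.214). In R6N/R6C, limma called 0 of 7 probe sets, against 0.177% of all. At an unadjusted p under 0.05, a looser limit for which no share of all is given, there were 4 of 7. *OsWRKY71* read 326, 251 and 233 in R6N against 115, 171 and 222 in R6C on probe set A, all punctured arrays above all untreated ones, with a log2 fold change of 0.71 and a 95% interval from 0.14 to 1.28 (adjusted p = 0.557). The response of RH minus that of TN1 was -0.99 (95% interval from -1.79 to -0.18, adjusted p = 1.00), and 0 of 7 probe sets differed in needle response at 6 h against 0.0140% of all, with 2 at an unadjusted p under 0.05. The other 2 probe sets with an unadjusted p under 0.05 in R6N/R6C beside *OsWRKY24* and *OsWRKY71* were those of *OsWRKY62*, which read 36.7, 34.5 and 37.1 in R6N, and *OsWRKY76*, which read 124, 126 and 151.

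At 24 h needle puncturing gave no differential WRKY gene. Limma called 0 of 7 probe sets in R24N/R24C and in T24N/T24C, against 0.0210% and 0.0542% of all probe sets. There were 1 and 0 at an unadjusted p under 0.05, for which no share of all is given. The 1 was probe set B of *OsWRKY71*, which read 41.3, 49.0 and 39.6 in R24N, a log2 fold change of 0.49 (adjusted p = 0.731). On probe set A this gene read 138, 132 and 220 in R24N and 156, 136 and 213 in T24N, with log2 fold changes of 0.53 and 0.05 and 95% intervals from -0.04 to 1.09 and from -0.52 to 0.62. The difference in needle response between the varieties at 24 h passed for 0 of 7 probe sets and for 0 of all probe sets by limma, with 0 of 7 at an unadjusted p under 0.05.

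Infested plants were also set against needle-punctured ones. Infested plants were not punctured, and the amount and age of wounding were not matched, so these comparisons do not isolate feeding. The arrays of *OsWRKY62* did not overlap in any of the 4 comparisons, though the share of all probe sets without overlap was not worked out. *OsWRKY62* was differential in 2 of the 4. In R6P/R6N it was the 1 differential probe set of 7, against 0.199% of all, with a log2 fold change of 1.13 ± 0.21 (SE, adjusted p = 0.00338, limma). *OsWRKY76* was at 0.91 (adjusted p = 0.0280), under 2-fold. For *OsWRKY71* on probe set A the difference was 0.06, with a 95% interval from -0.50 to 0.63. In T6P/T6N limma called 0 of 7 against 0.194% of all. There were 3 at an unadjusted p under 0.05, for which no share of all is given. *OsWRKY62* and *OsWRKY76* were there at 0.79 and 0.74 (adjusted p = 0.0763 and 0.107), and *OsWRKY71* on probe set A at -0.60 (adjusted p = 0.513), lower in infested than in punctured plants. Without T6P replicate 2, *OsWRKY62* was differential in T6P/T6N.

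At 24 h, *OsWRKY62* and *OsWRKY71* were differential in R24P/R24N, 2 of 7 against 0.757% of all probe sets. The log2 fold changes were 1.11 ± 0.21 (SE, adjusted p = 0.000485, limma) for *OsWRKY62* and 1.05 ± 0.28 (SE, adjusted p = 0.0119) for probe set A. Both lay close to 2-fold, and 0 of 7 probe sets were called without R24P replicate 3, at 0.94 and 0.92. In T24P/T24N, both *OsWRKY71* probe sets and *OsWRKY24* were differential, 3 of 7 against 6.08% of all probe sets. Probe set A changed by 2.09 ± 0.28 (SE, adjusted p = 4.41e-07), probe set B by 1.19 ± 0.21 (adjusted p = 3.26e-05) and *OsWRKY24* by 1.39 ± 0.22 (adjusted p = 8.07e-06). *OsWRKY24* read 26.0, 18.8 and 31.6 in T24N, where it had its lowest group mean, and its call held without any single array. Probe set A also kept its call, but probe set B fell under 2-fold without T24P replicate 1, at 0.85. *OsWRKY62* at 0.98 (adjusted p = 0.000384) and *OsWRKY51* at 0.77 (adjusted p = 4.70e-05) stayed under 2-fold. These comparisons share the infested arrays with those against natural growth and are not independent of them.

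*OsWRKY62* and *OsWRKY76* were far higher at 24 h than at 6 h, whatever the treatment. Both were differential in all 6 series of variety and treatment, as 2 of 7 members, against 0.584% of all probe sets higher in all 6. On the 18 arrays at 6 h *OsWRKY76* lay between 70.2 and 270.5 with a median of 116, and on the 18 arrays at 24 h between 494 and 1139 with a median of 715, so the hours did not overlap. The log2 difference was 2.89 in R24C/R6C and 2.94 in T24C/T6C (SE 0.21, adjusted p = 2.17e-12 and 1.33e-12, limma). *OsWRKY62* lay between 19.0 and 87.4 at 6 h, with a median of 27.7, and between 85.7 and 441 at 24 h, with a median of 157. The hours met only where infested RH at 6 h reached the lowest untreated TN1 array at 24 h. Its log2 difference was 2.54 in R24C/R6C and 2.34 in T24C/T6C (SE 0.21, adjusted p = 4.17e-11 and 2.49e-10, limma).

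Over the 4 series without insects the mean log2 difference was 2.80 for *OsWRKY76* and 2.37 for *OsWRKY62*. In infested plants the difference of *OsWRKY76* was 1.90 in RH and 2.14 in TN1, and that of *OsWRKY62* was 2.13 and 2.62. The difference over time was therefore larger than any treatment effect on these genes, and each was in place in plants that nobody had touched. The other 5 probe sets showed no such rise. Their mean differences over the 4 series lay between -0.41 for *OsWRKY71* (probe set A) and -0.24 for *WRKY9*. Among single series, 2 of 7 probe sets were differential in R24C/R6C, R24N/R6N, T24C/T6C, T24N/T6N and R24P/R6P, against 2.68%, 2.56%, 2.69%, 2.51% and 3.19% of all probe sets. In T24P/T6P it was 4 of 7 against 9.50%, with probe set A and probe set B of *OsWRKY71* at 1.70 and 1.07 (adjusted p = 7.85e-06 and 9.43e-05, limma) beside *OsWRKY62* and *OsWRKY76*. Probe set B fell under 2-fold there, to 0.73 at the lowest, without T6P replicate 2 or T24P replicate 1.

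**Figure D3:**
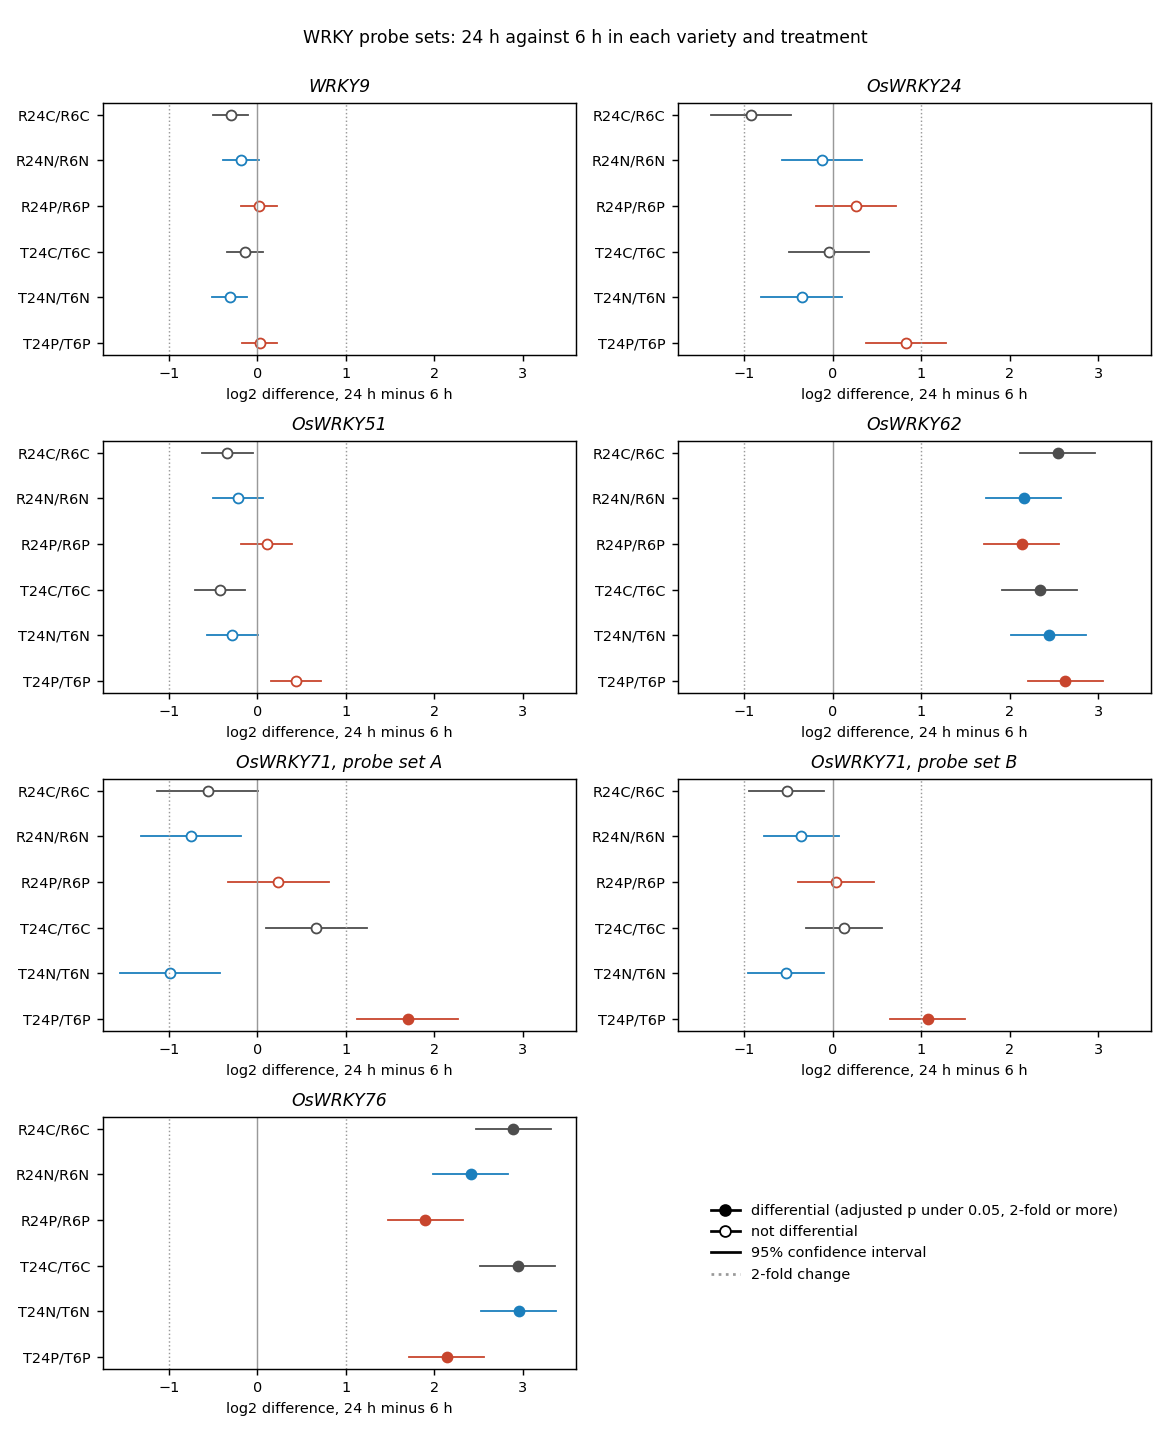
Log2 difference between 24 h and 6 h of each WRKY probe set in the 6 series of variety and treatment, with 95% confidence intervals from 3 arrays per group, filled where differential and dotted lines at 2-fold. *OsWRKY62* and *OsWRKY76* lie between 1.90 and 2.95 in all 6 series, and *OsWRKY71* is filled in T24P/T6P only.

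The neighbours *OsWRKY62* and *OsWRKY76* moved alike at 6 h and less so at 24 h. Over the 6 group means at 6 h their log2 intensities correlated at 0.997, and over the 6 at 24 h at 0.712, values given as a description over groups that share their hour and normalization. At 6 h the order of the groups was led by R6P for both, then T6P, then R6N. At 24 h R24P was again the highest for both, but T24P was the second of *OsWRKY62* and the lowest 24 h group of *OsWRKY76*, at 231 ± 53.9 and 642 ± 128 (SD, n = 3). The 2 probe sets of *OsWRKY71* correlated in the same way at 0.828 at 6 h and 0.976 at 24 h, with changes that were mostly smaller on probe set B, the probe set nearer to the array medians.

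**Figure D4:**
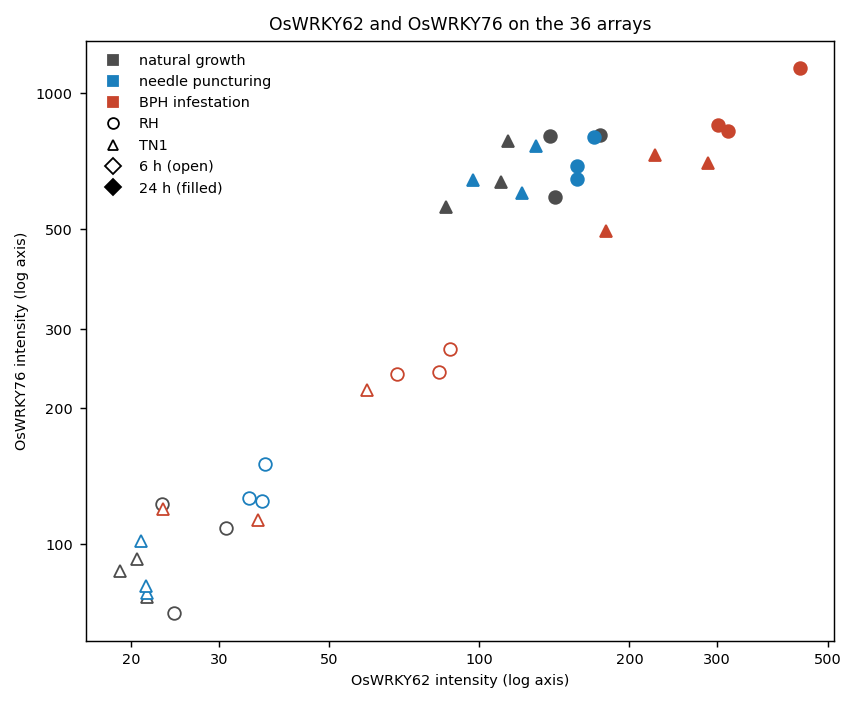
Intensity of *OsWRKY76* against *OsWRKY62* on the 36 arrays (log axes), coloured by treatment, with circles for RH, triangles for TN1, open symbols for 6 h and filled symbols for 24 h. The 6 h arrays form a rising line led by infested RH, and among the 24 h arrays *OsWRKY76* stays between 494 and 1139 while infested arrays extend to the right, up to 441 for *OsWRKY62*.

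Between the varieties, 0 of 7 probe sets were differential in all 6 conditions, against 1.78% of all probe sets. *OsWRKY62* and *OsWRKY76* had the higher mean in RH in 6 of 6 conditions, by 0.65 and 0.40 on average on the log2 scale. The share of all probe sets with a higher mean in RH in 6 of 6 conditions was not worked out. For *OsWRKY62* the RH arrays lay above the TN1 arrays in each of the 6 conditions, a pattern whose share of all probe sets was not worked out either. Its means in R6C, R6N, T6C and T6N lay between 20.4 and 36.1, near or below the array medians. *OsWRKY62* was differential in R6P/T6P, as 1 of 7 probe sets against 3.11% of all, at 1.11 ± 0.21 (SE, adjusted p = 0.000205, limma). Without T6P replicate 2, the lowest infested TN1 array, this difference was 0.77 and under 2-fold. In untreated plants it was 0.35 at 6 h and 0.56 at 24 h, with 95% intervals from -0.07 to 0.77 and from 0.13 to 0.98 (adjusted p = 0.407 and 0.103). *OsWRKY76* differed by 0.80 in R6P/T6P (adjusted p = 0.00752) and by 0.55 in R24P/T24P (adjusted p = 0.0465), both under 2-fold, and by 0.20 and 0.15 in untreated plants.

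In infested plants at 24 h the sign was the opposite for 2 other genes. *OsWRKY24* and *OsWRKY71* were lower in RH than in TN1 in R24P/T24P, as 2 of 7 differential probe sets against 5.81% of all. *OsWRKY24* read 26.7, 32.2 and 39.0 in R24P and fell short of every T24P array, a log2 difference of -1.02 ± 0.22 (SE, limma, adjusted p = 0.000584). *OsWRKY71* on probe set A differed by -1.09 ± 0.28 (SE, adjusted p = 0.00297), and on probe set B by -0.55 (adjusted p = 0.0508). Without T24P replicate 1 both calls were lost, and the difference of probe set A was -0.77 (adjusted p = 0.0555). That of *OsWRKY24* was -0.89 at its smallest, and its call was lost without R24P replicate 1 too. In the other 4 conditions limma called 0 of 7 probe sets, against 2.91% in R6C/T6C, 2.92% in R6N/T6N, 2.75% in R24C/T24C and 2.81% in R24N/T24N. At an unadjusted p under 0.05 there were 2, 2, 1 and 1 of 7, for which no share of all is given. *OsWRKY62* in needle-punctured plants and *OsWRKY24* in untreated plants, both at 6 h, passed the adjusted p under 2-fold. They were higher in RH by 0.76 (adjusted p = 0.0132) and 0.75 (adjusted p = 0.0248).

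**Figure D5:**
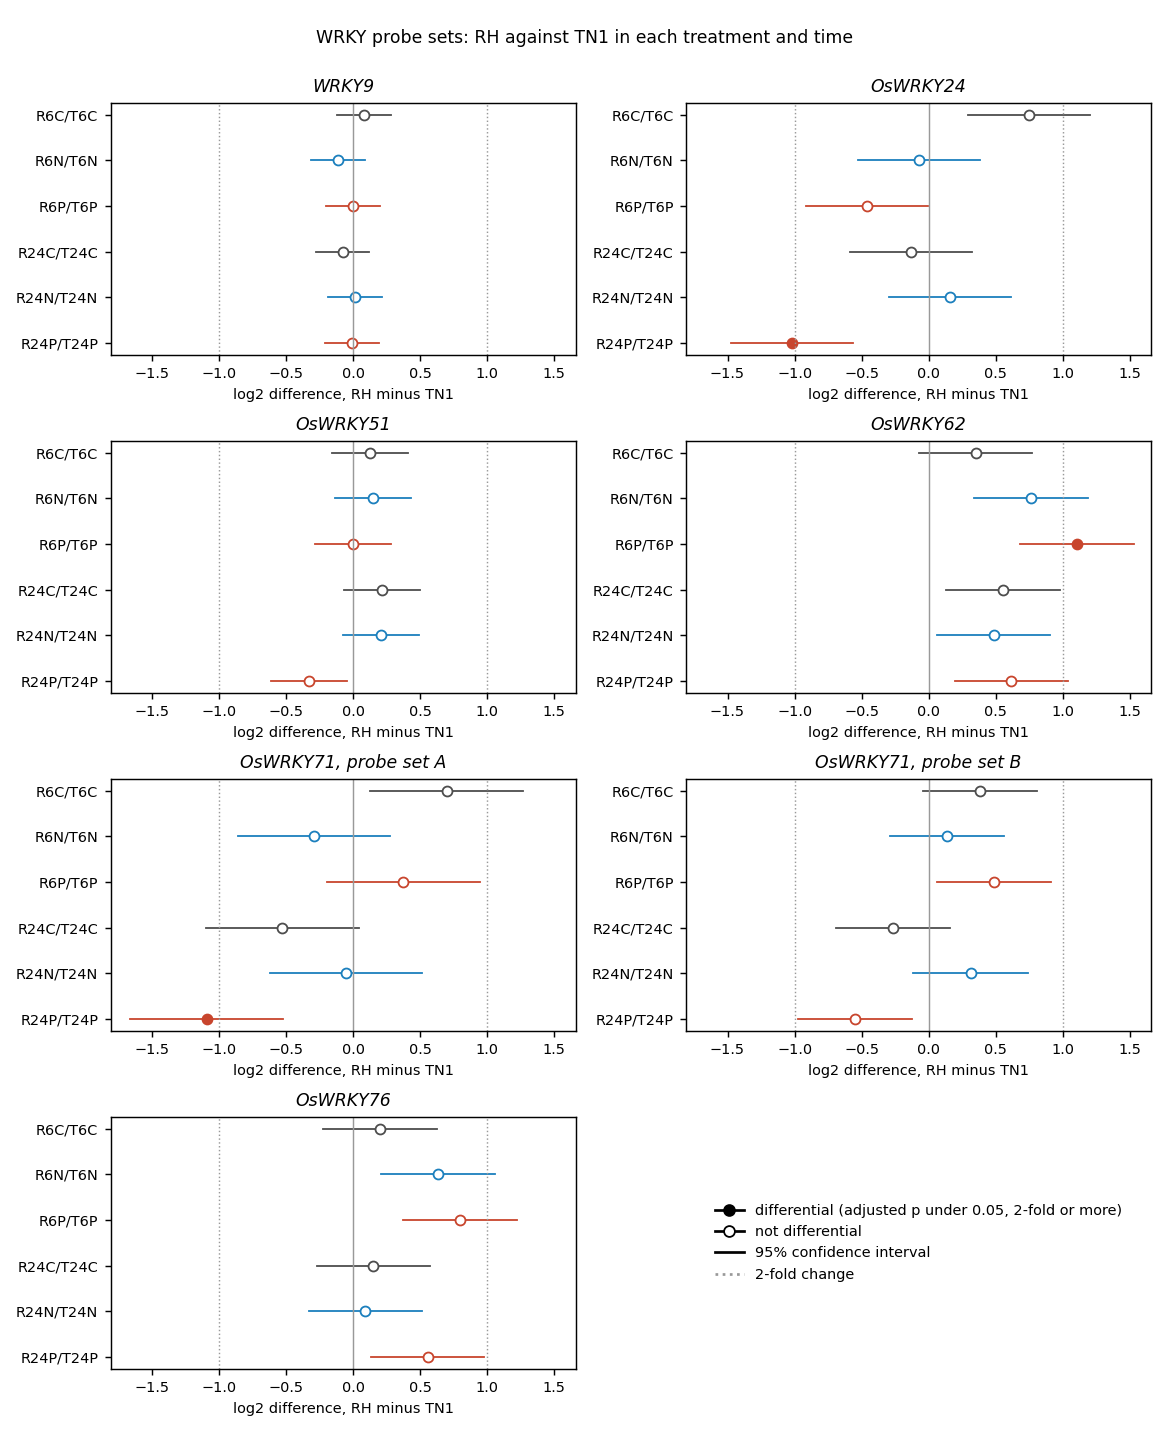
Log2 difference between RH and TN1 of each WRKY probe set in the 6 conditions. The 95% confidence intervals use 1 variance per probe set over all 12 groups of 3 arrays. Filled points are differential, and dotted lines mark 2-fold. *OsWRKY62* and *OsWRKY76* lie above 0 in all 6 conditions, and *OsWRKY24* and *OsWRKY71* (probe set A) reach -1.02 and -1.09 in R24P/T24P.

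In the order of its group means *OsWRKY24* was highest in T24P, at 65.6 ± 5.66 (SD, n = 3), followed by R6C at 58.1 ± 14.4. The next was T6P at 37.6 ± 9.09, and the other 9 groups followed down to T24N at 25.5 ± 6.39, each overlapping its neighbour. Among 3149 probe sets of other named genes, those most like it over the 12 group means of log2 intensity, by Pearson's r, were *ERG1* (0.941), *OsPP2C32* (0.885), *HOX1* (0.854), *OsPP2C58* (0.854) and *OsPP2C02* (0.825).

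Genes that work with WRKY factors were counted in the same way, each list beside the share of all probe sets called. Of 17 genes of the MAP kinase cascade, whose kinases phosphorylate WRKY proteins, 2 were higher and 0 lower in T24P/T24C, where 6.66% of all probe sets were called, and 0 were differential in the other 7 comparisons with natural growth. These were *BIMK2* and *BIMK1*, at 1.83 and 1.42 (adjusted p = 5.02e-10 and 4.57e-07, limma), and the list's median was 0.30 against -0.03 over all probe sets. Of 14 genes of the salicylate branch and pathogenesis-related proteins, 2 were higher and 0 lower in T24P/T24C against the same 6.66% of all probe sets, with a median of 0.42. *PBZ1*, a pathogenesis-related gene, rose by 3.45 there (adjusted p = 1.48e-07) and *NH1*, a homologue of the salicylate coactivator NPR1, by 1.27 (adjusted p = 1.36e-07). *PBZ1* was also the 1 gene of this list that rose in R6P/R6C, by 2.97 (adjusted p = 6.17e-05), and in T6N/T6C, by 1.92 (adjusted p = 0.0136), against 0.416% and 0.418% of all probe sets.

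Of 10 genes of diterpenoid phytoalexin synthesis, a pathway known to be repressed by *OsWRKY62* and *OsWRKY76*, 3 were higher and 0 lower in T24P/T24C against 6.66% of all probe sets, with a median of 0.32, and 0 were differential in the other 7 comparisons. *CPS2* and *CPS4*, the cyclases that open its branches, rose by 2.61 (adjusted p = 1.40e-10) and 1.50 (adjusted p = 8.97e-08), and *CYP99A3* by 1.72 (adjusted p = 1.39e-07, limma). *CPS2* and *CPS4* averaged 16.4 and 15.8 over all arrays, below the array medians, so their controls may be background and the size of the rises is uncertain. Of 13 gibberellin and abscisic acid targets and partners of the aleurone WRKY factors, 7 were higher and 0 lower in T24P/T24C against 6.66% of all probe sets, with a median of 1.07, and 2 were higher in R24P/R24C against 1.21%, with a median of 0.28. Of the 7, 6 were genes known to be induced by abscisic acid and drying, *LEA3*, *RAB21*, *RAB16B*, *RAB16C*, *RAB16D* and *rab25*, with rises between 1.07 for *rab25* and 5.67 for *RAB21*, and the other was the alpha-amylase gene *AMY3D* at 2.45. *rab25* and *AMY3D* averaged 16.3 and 21.1, again below the array medians, and the dimmer probe set of *AMY3D* was at -0.17 (adjusted p = 0.433). *LEA3* and *RAB16B* averaged more, 54.3 and 45.5 with T24P included, but their lowest arrays read 8.73 and 14.4. Their controls may be background as well, and the size of their rises is uncertain. The 2 in R24P/R24C were *LEA3* at 1.34 and *RAB21* at 1.32 (adjusted p = 0.0102 and 0.0130, limma).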

How the data were processed

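Total RNA of seedling shoots was hybridised to 36 Affymetrix arrays, 1 per sample. The authors deposited linear intensities, summarised to 1 value for each probe set of an array and normalized across arrays, and name RMA and affy in their processing notes without a version. RMA shrinks low signals together, which can understate the fold changes of dim probe sets. Intensities were taken to log2 with no further normalization or filter, and limma 3.58.1 in R 4.3.3 was fitted to 57194 probe sets with 1 mean for each of 12 groups, giving 24 residual and 6.17 prior degrees of freedom. There were 24 comparisons of 2 groups and 4 interaction terms, the response of RH minus that of TN1, for which no minimum fold change was set. The fit was tested on simulated data. Probe sets were named through gene IDs in the platform annotation and RefSeq synonyms, and all 22436 IDs matched. No sequence or coordinate was used. The members, the gene lists and the rule for genes described array by array (OsWRKY24 and members called against natural growth or between hours) were chosen with earlier results of these data known. Each gene of a list entered with its brightest probe set. Alternatives were an adjusted p under 0.01, no minimum fold change, quantile normalization, median centring, array weights, trended robust variances, removal of dim probe sets (mean log2 under 6), fitting only the compared groups, a replicate block, the one-way ANOVA that the methods name, run on both groups of a comparison, and leaving out each array in turn. The number of arrays limits the precision.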

Additional observations from a re-analysis of the deposited data

How the results depend on the processing

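The counts of differential WRKY probe sets moved with the settings. The share of all probe sets was worked out under the main settings only. Counts under other settings, also without single arrays, therefore stand without a background and describe these probe sets alone. An adjusted p under 0.01 gave 0 in T6P/T6C and 1 in R24P/R24N. No minimum fold change gave 3 in T6P/T6C, 5 each in R24P/R24C, T24P/T24C and T24P/T24N, and 2 in R6P/R6N. Quantile normalization and median centring each gave 4 in T24P/T24C, adding *OsWRKY24*. Quantile normalization gave 0 in R24P/R24N, and array weights gave 1 there and 1 in T24P/T24C. Leaving out dim probe sets gave 1 in T24P/T24N and 2 each in R6P/R6C and T24P/T24C, since *OsWRKY24* and probe set B of *OsWRKY71* were then not tested. For the variety difference in BPH response at 24 h, 0 became 1 with quantile normalization, with a fit of just the groups involved or without dim probe sets, and array weights made it 2, *OsWRKY51* and *OsWRKY76*. The one-way ANOVA with adjusted p gave 1 in R24P/R24C and T24P/T24N and 0 in R6P/R6C, T6P/T6C, T24P/T24C, T6N/T6C, R6P/R6N and R24P/R24N. Except where stated, the cause was not tested.

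Leaving out each array in turn gave 2 to 3 in R6P/R6C, 0 to 2 in T6P/T6C, 1 to 5 in T24P/T24C, 0 to 1 in R6N/R6C and T6P/T6N, 0 to 2 in R24P/R24N, 2 to 4 in T24P/T24N and 0 to 1 for the variety difference in BPH response at 6 h and at 24 h. Without R6C replicate 1, *OsWRKY24* was the 1 called in R6N/R6C. Each probe set and comparison called in the main fit was also followed under the alternatives other than the ANOVA and the dropped fold minimum. There 425 values kept direction and call, 31 lost the call and 0 reversed. Calls gained were not counted. A reversal was unlikely from the start, since only calls of at least 2-fold were followed.

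Same-numbered arrays did not deviate together on average, with a mean correlation of -0.00621 over 198 pairs against 0.00303 over 396 other pairs. Single same-numbered pairs ranged from -0.48 to 0.437, and a mean cannot exclude pairing between some of the groups. The numbers were not used to pair samples in the main fit. The replicate block changed none of the counts, which stayed at 3 in T24P/T24C and R6P/R6C, 2 in R24P/R24C and 1 in T6P/T6C. Values near the array medians limit what can be read for *OsWRKY24*, for *OsWRKY62* at 6 h and for probe set B.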
